A study of Monodelphis domestica with 18 samples.

Results

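The genes described here encode histone lysine demethylases: KDM2A, KDM2B, KDM3A, KDM3B, KDM4A, KDM4B, KDM4C, KDM5A, KDM5B and KDM6B. They were taken by gene name from a deposited table of read counts for 23899 genes. Of the 10 names, 8 were found, and they covered 10 entries of the table, because KDM2A and KDM2B each had 2 Ensembl identifiers. KDM4A and KDM6B were not analysed here. The single identifiers were ENSMODG00000009450 for KDM3A, ENSMODG00000012144 for KDM3B, ENSMODG00000001130 for KDM4B, ENSMODG00000015213 for KDM4C, ENSMODG00000018390 for KDM5A and ENSMODG00000000755 for KDM5B. A gene was tested where it exceeded 1 CPM, a read count scaled to the library total, in at least 6 of the 18 libraries, and 9 of the 10 entries did. The entry left out was the second KDM2A identifier, ENSMODG00000009064, with 10 to 77 counts per library.

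RNA came from opossum kidney (OK) cells, an established line with features of the kidney proximal tubule, grown on permeable supports in serum-containing medium. All groups were the same unmodified line, and differed in culture mode and time. Orbital shear stress (OSS) groups were placed on a platform shaker at 146 rpm on the day after plating, which is 0 h. They were harvested at 12, 48 and 96 h. Static groups stayed still and were harvested at 0, 48 and 96 h. Each of the 6 groups had 3 libraries, and each library pooled RNA of 3 experiments. The earliest static samples are from 0 h and the earliest OSS samples from 12 h. In the comparison of OSS 12 h with Static 0 h, the shaking and the 12 h of further culture thus cannot be told apart.

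Total counts ranged between 40154553 and 79745362 per library, with every pair of replicates further apart than counting error. Proximal tubule markers matched the line's label: 9 of the 10 listed were found, 8 averaged over 1 CPM in every group, and their summed level was 4437 to 10035 CPM. The 3 endothelial markers summed to 0.494 to 3.35 CPM and the 4 distal and collecting duct markers found to 1.14 to 2.81 CPM. Not all other sets were this low. The 3 podocyte markers summed to 39.6 to 86.2 CPM, with 2 averaging over 1 CPM in every group, and the 3 leukocyte markers to 5.48 to 10.6 CPM. Some marker sums moved with culture mode. The proximal tubule sum was 8299 to 9340 CPM in OSS 48 h, against 6250 to 8110 CPM in Static 48 h. At 96 h it was 8179 to 10035 CPM in OSS, against 5940 to 6584 CPM in Static. OSS 12 h and Static 0 h overlapped in this sum. The sum over 3 fibroblast markers was 43.0 to 61.6 CPM in OSS 12 h, against 71.6 to 111 CPM in Static 0 h. It was 16.3 to 20.5 CPM in OSS 96 h, against 49.2 to 49.4 CPM in Static 96 h. The sum over 2 thick limb markers was 26.1 to 39.0 CPM in OSS 96 h, against 3.48 to 5.79 CPM in Static 96 h. Every matched marker had counts in at least 1 library, and the part of these shifts in the results below was not tested. In bulk RNA, fewer cells of a type and less RNA per cell cannot be told apart.

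As a class, histone lysine demethylases remove methyl groups from lysines in the tails of histones and so act on the marks that set chromatin open or closed. The members here belong to the Jumonji C class, whose enzymes need iron, 2-oxoglutarate and molecular oxygen for each cycle. The subfamilies differ in the lysines they act on, and their members were ordered accordingly. In human and mouse cells, KDM3A and KDM4B are also known as transcriptional targets of the hypoxia-inducible factors (HIF), which act when oxygen is short.

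OSS cultures held less KDM3A, KDM4B, KDM5B and KDM4C transcript than static cultures at 48 and 96 h. OSS 12 h also held less KDM3A, KDM4B and KDM5B than Static 0 h, a comparison in which culture time differs too. At 96 h, KDM3A was 3.79-fold lower, KDM4B 1.87-fold lower, KDM5B 1.46-fold lower and KDM4C 1.35-fold lower in OSS. KDM2A, KDM3B and KDM5A differed by -0.05 to -0.01 on the log2 scale at that time, and none passed the test.

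A gene counts as called where its edgeR quasi-likelihood p, adjusted over all genes tested, was under 0.05. For OSS 12 h against Static 0 h, 3 of the 9 entries (KDM3A, KDM4B and KDM5B) were lower, beside 6.65% of all genes tested called lower and 13.1% called in either direction. With the replicate number as a block, 5 of the 9 passed, adding KDM4C at -0.55 (SE 0.08, adjusted p = 0.000355) and KDM3B at -0.20 (SE 0.06, adjusted p = 0.0222). That fit called 41.2% of all genes. For OSS 48 h against Static 48 h, 6 of 9 were lower, beside 24.5% of all genes called lower and 48% in either direction. For OSS 96 h against Static 96 h, 4 of 9 were lower, beside 26.2% called lower and 51.6% in either direction. Genes called higher made up 6.45, 23.5 and 25.5% of all genes at 12, 48 and 96 h, and no member was among them. The median log2 fold change of the 9 entries was -0.20, -0.56 and -0.22 at these times, and over all genes it was 0.00, -0.03 and 0.00.

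**Figure D1:**
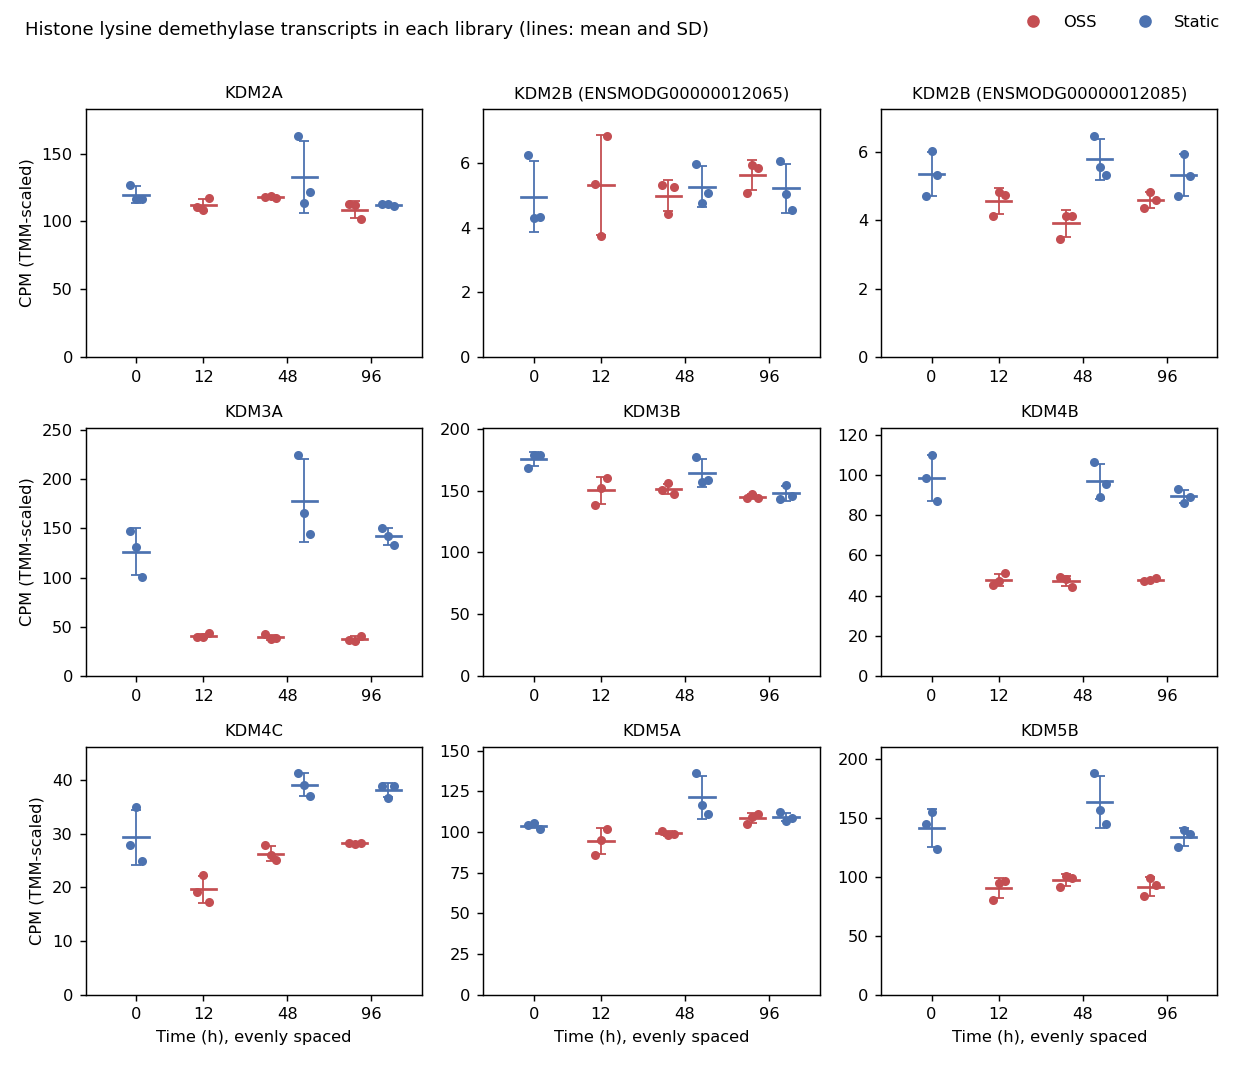
TMM-scaled CPM of the 9 tested entries (vertical axes, each starting at 0) in each of the 18 libraries against time in hours, evenly spaced. Points are libraries, short horizontal lines group means and vertical bars SD; in the KDM3A panel the OSS libraries lie between 35.1 and 43.2 CPM and the static ones between 100.5 and 225 CPM.

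KDM3A removes mono- and dimethyl marks from lysine 9 of histone H3, a mark of silent chromatin. Levels below are CPM scaled by the trimmed mean of M values (TMM). KDM3A stood at 39.8, 39.1 and 43.2 CPM in OSS 12 h, at 42.4, 37.0 and 38.5 CPM in OSS 48 h and at 36.2, 35.1 and 41.0 CPM in OSS 96 h. The static libraries had 147, 131 and 100.5 CPM at 0 h, then 225, 165 and 144 CPM at 48 h, then 151, 142 and 133 CPM at 96 h. Every OSS library thus lay below every static library, with more than a 2-fold gap between the sets, and the OSS libraries were also closer to each other. The log2 fold change was -1.61 (SE 0.14, adjusted p = 0.00584) for OSS 12 h against Static 0 h, by edgeR's quasi-likelihood test. It was -2.18 (SE 0.15, adjusted p = 1.23e-07) for OSS 48 h against Static 48 h and -1.92 (SE 0.08, adjusted p = 1.28e-05) for OSS 96 h against Static 96 h in the same test. Among all 12840 genes tested, KDM3A ranked 7 by p and 88 by size of fall at 12 h. In the comparisons at 48 and 96 h it ranked 173 and 230 by size of fall.

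The low level of KDM3A was already reached at 12 h and did not pass a test of further change under shear. OSS 48 h differed from OSS 12 h by -0.05 on the log2 scale (SE 0.08) and OSS 96 h from OSS 48 h by -0.07 (SE 0.08). In static culture KDM3A averaged 178 ± 41.8 CPM at 48 h and 126 ± 23.9 CPM at 0 h (SD, n = 3 each), and the groups overlapped. That difference of 0.48 (SE 0.18) did not pass (edgeR adjusted p = 0.0704). It did pass with the replicate number as a block, at 0.47 (SE 0.10, adjusted p = 0.00825).

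KDM3B, its closest relative in the family, acts on the same lysine. It averaged 150.2 ± 10.9 CPM in OSS 12 h, 151 ± 4.19 CPM in OSS 48 h and 145 ± 1.88 CPM in OSS 96 h (SD, n = 3 each). The static groups averaged 175 ± 5.97 CPM at 0 h, then 164 ± 11.0 CPM at 48 h, then 148 ± 6.25 CPM at 96 h. None of the 3 comparisons of OSS with Static passed: the log2 fold changes were -0.20 (SE 0.08), -0.12 (SE 0.07) and -0.03 (SE 0.05) in order of time. At 96 h the 95% interval of the difference was -0.16 to 0.10, and the KDM3A fall lay outside it. Late samples of both cultures had less KDM3B than Static 0 h. The fall was by 0.28 on the log2 scale in OSS 96 h (SE 0.07, edgeR adjusted p = 0.00391) and by 0.28 in Static 96 h (SE 0.08, adjusted p = 0.0241). The static fall lost its call in 5 of 6 fits that left out 1 library, with adjusted p up to 0.102.

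The balance of the pair differed between the cultures. In CPM per kilobase of the deposited gene length, the ratio of KDM3A to KDM3B within a library was 0.46 ± 0.03 in OSS 12 h, 0.44 ± 0.04 in OSS 48 h and 0.44 ± 0.04 in OSS 96 h (SD, n = 3 each). In static libraries it was 1.22 ± 0.26 at 0 h, 1.82 ± 0.31 at 48 h and 1.62 ± 0.14 at 96 h. KDM3A was the lower of the pair in all 9 OSS libraries, where the highest ratio was 0.484. The lowest static ratio was 0.948.

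**Figure D2:**
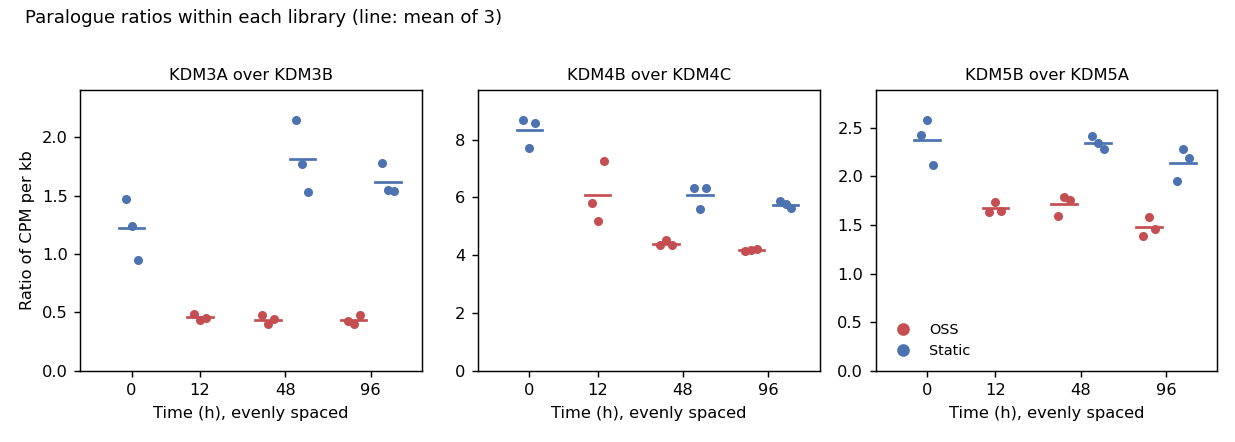
Ratio of CPM per kilobase between related genes within each library (vertical axes from 0) against time in hours, evenly spaced; points are libraries and lines are means of 3. KDM3A over KDM3B lies between 0.401 and 0.484 in OSS libraries and between 0.948 and 2.15 in static libraries, and the other ratios are also lower in OSS than in Static at 48 and 96 h.

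KDM4B and KDM4C remove trimethyl marks from lysine 9, and less efficiently lysine 36, of histone H3. KDM4B had 45.3, 47.1 and 51.2 CPM in OSS 12 h, 49.3, 48.0 and 44.3 CPM in OSS 48 h and 47.5, 47.7 and 48.6 CPM in OSS 96 h. Static libraries had 98.7, 110.2 and 87.2 CPM at 0 h, then 106, 89.3 and 95.4 CPM at 48 h, then 93.0, 86.2 and 88.9 CPM at 96 h. As with KDM3A, OSS and static libraries did not overlap and the OSS groups were level with each other. OSS 12 h against Static 0 h gave a log2 fold change of -1.02 (SE 0.10, edgeR adjusted p = 0.00733). It was -1.04 (SE 0.09, edgeR adjusted p = 5.13e-07) at 48 h and -0.90 (SE 0.05, adjusted p = 3.73e-05) at 96 h. No step of time within OSS or within static culture passed for KDM4B, and all 5 log2 differences tested between times of 1 culture mode lay between -0.17 and 0.02.

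KDM4C combined a difference between the cultures with a rise over time in both. It had 19.2, 22.3 and 17.3 CPM in OSS 12 h, 27.8, 26.0 and 25.0 CPM in OSS 48 h and 28.2, 28.0 and 28.3 CPM in OSS 96 h. Static libraries had 27.9, 35.0 and 24.9 CPM at 0 h, then 41.2, 39.0 and 36.9 CPM at 48 h, then 38.9, 36.6 and 38.8 CPM at 96 h. At equal times every OSS library was below every static one, but OSS 96 h lay within the range of Static 0 h. The log2 fold change was -0.57 (SE 0.11, edgeR adjusted p = 0.000592) at 48 h and -0.44 (SE 0.06, adjusted p = 0.000894) at 96 h. OSS 12 h against Static 0 h gave -0.55 (SE 0.15), which did not pass (edgeR adjusted p = 0.0502). It passed in 9 of 16 alternatives, among them DESeq2 (adjusted p = 0.00687) and the fit without Static 0 h replicate 3 (adjusted p = 0.0373). KDM4C rose by 0.42 between 12 and 48 h of OSS (SE 0.09, edgeR adjusted p = 0.0108). In static culture it rose by 0.40 at 48 h (SE 0.12, adjusted p = 0.0301) and by 0.35 at 96 h (SE 0.12, adjusted p = 0.0467), both against 0 h. OSS 96 h against Static 0 h differed by -0.06 (SE 0.11, edgeR adjusted p = 0.725). Both static rises were called or not depending on single libraries: 4 of 6 fits without 1 library lost the call at 48 h (adjusted p up to 0.0917) and 5 of 6 lost it at 96 h (up to 0.135).

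KDM5A and KDM5B take methyl groups off lysine 4 of histone H3, a mark of active promoters. KDM5B had 80.4, 94.6 and 96.1 CPM in OSS 12 h, 91.4, 100.6 and 99.2 CPM in OSS 48 h and 83.3, 98.8 and 92.8 CPM in OSS 96 h. Static libraries had 145, 155 and 123 CPM at 0 h, then 188, 157 and 145 CPM at 48 h, then 125, 139.5 and 136 CPM at 96 h. Again the OSS and static libraries did not overlap at any time. The log2 fold change was -0.61 (SE 0.11, edgeR adjusted p = 0.0192) for OSS 12 h against Static 0 h. It was -0.75 (SE 0.11, edgeR adjusted p = 6.28e-05) at 48 h and -0.55 (SE 0.08, adjusted p = 0.0012) at 96 h. The call at 12 h was lost without Static 0 h replicate 2, OSS 12 h replicate 1 or OSS 12 h replicate 2, with adjusted p up to 0.0721.

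KDM5A, which shares this substrate, was lower in OSS at 48 h and did not pass at the other times. It averaged 94.5 ± 8.17 CPM in OSS 12 h, against 104 ± 1.61 CPM in Static 0 h (SD, n = 3 each). At 96 h the means were 109 ± 3.04 CPM in OSS and 109 ± 2.68 CPM in Static. The log2 fold changes were -0.11 (SE 0.09) and -0.01 (SE 0.05), neither of which passed. At 48 h KDM5A averaged 99.2 ± 1.27 CPM in OSS, against 121 ± 13.2 CPM in Static, a log2 fold change of -0.29 (SE 0.08, edgeR adjusted p = 0.00542). A fit on only the 6 libraries compared gave an adjusted p of 0.0581. The ratio of KDM5B to KDM5A per kilobase was 1.67 ± 0.05, 1.71 ± 0.11 and 1.48 ± 0.10 in OSS 12, 48 and 96 h. It was 2.37 ± 0.24, 2.35 ± 0.06 and 2.14 ± 0.17 in Static 0, 48 and 96 h, and no OSS library reached the lowest static value of 1.95.

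KDM2A and KDM2B remove mono- and dimethyl marks from lysine 36 of histone H3 and bind unmethylated CpG islands, where KDM2B also brings in a Polycomb complex. KDM2A (ENSMODG00000007767) averaged 112 ± 4.30, 118 ± 0.76 and 109 ± 6.06 CPM in OSS 12, 48 and 96 h. It averaged 119.8 ± 6.25, 133 ± 26.7 and 112 ± 0.82 CPM in Static 0, 48 and 96 h (SD, n = 3 each). The groups overlapped at every time and no comparison passed. The mean at 48 h was pulled up by Static 48 h replicate 1, at 163 CPM, and without Static 48 h replicate 2 the fall passed (adjusted p = 0.0378). The 95% interval of the difference at 96 h was -0.19 to 0.09.

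The 2 KDM2B entries were the least abundant tested members in CPM, with 174 to 511 counts per library, and they did not move alike. ENSMODG00000012085 had 3.46, 4.14 and 4.13 CPM in OSS 48 h, against 6.48, 5.55 and 5.34 CPM in Static 48 h. The groups did not overlap and the log2 fold change was -0.56 (SE 0.13, edgeR adjusted p = 0.00276). At 12 and 96 h its log2 fold changes were -0.20 (SE 0.16) and -0.22 (SE 0.13), neither of which passed. ENSMODG00000012065 averaged 4.99 ± 0.49 CPM in OSS 48 h and 5.27 ± 0.62 CPM in Static 48 h, a difference of -0.08 (SE 0.20) that did not pass. With the counts of both entries added, an alternative chosen after seeing the data, KDM2B was -0.31 at 48 h (SE 0.11, adjusted p = 0.0352). Whether the entries are parts of 1 gene or copies was not tested.

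**Figure D3:**
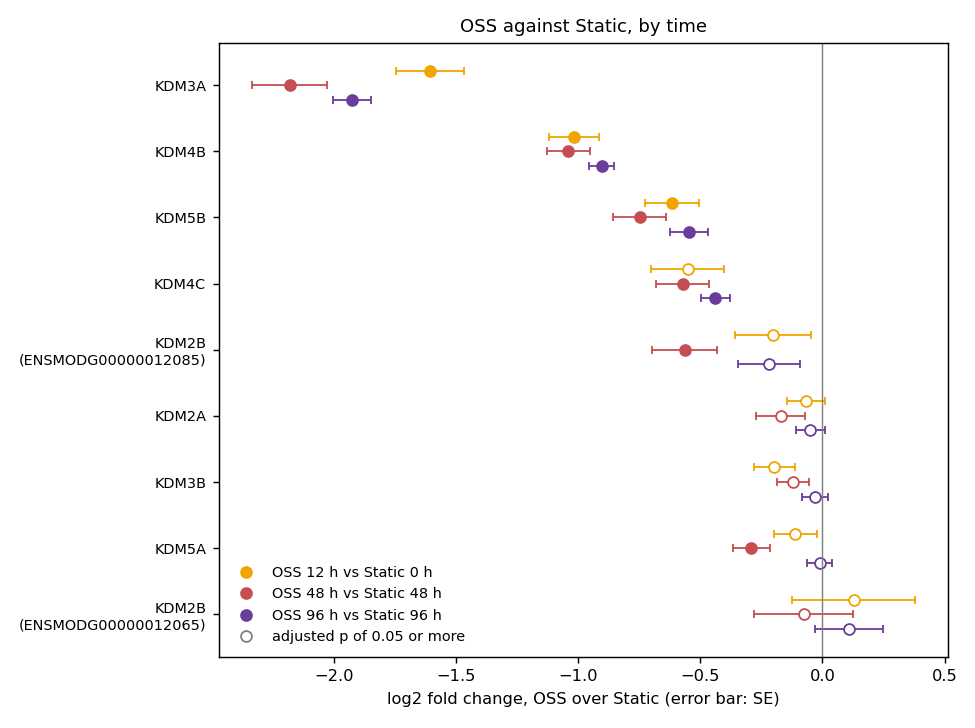
log2 fold change of OSS over Static (horizontal axis) with its SE for the 9 tested entries at 12 h (against Static 0 h), 48 h and 96 h; filled points have an adjusted p under 0.05 and open points do not. KDM3A lies farthest to the left at each time, at -1.61, -2.18 and -1.92, followed by KDM4B at -1.02, -1.04 and -0.90.

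Between 12 and 48 h of OSS, 1 of 9 passed (KDM4C, higher), beside 14.3% of all genes called higher. Between 48 and 96 h of OSS none of 9 passed, beside 1.14% of all genes called in either direction; none had an unadjusted p under 0.05, and DESeq2 called none. That share was 8.61% in DESeq2, and leaving out any 1 of the 6 libraries compared took it to between 0.00779 and 0.117%. In Static 48 h against Static 0 h 1 of 9 passed (KDM4C, higher), beside 14.8% of all genes called higher, and the blocked fit called 2. In Static 96 h against Static 0 h 2 of 9 passed, KDM4C higher and KDM3B lower, beside 32% of all genes called in either direction. In Static 96 h against Static 48 h none of 9 passed, beside 0.0389% of all genes, with 1 member (KDM5B) at an unadjusted p under 0.05 and none called by DESeq2. The share was 2.23% in DESeq2, 0% without any 1 of the Static 96 h libraries and 0.101% without Static 48 h replicate 3. In OSS 96 h against Static 0 h 4 of 9 (KDM3A, KDM3B, KDM4B and KDM5B) were lower, beside 20.2% of all genes. Comparisons of OSS 12 h, OSS 96 h and later static groups with Static 0 h share the same 3 control libraries.

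Whether the difference between OSS and Static moved from 48 to 96 h was tested as an interaction. None of the 9 entries passed in edgeR, beside 0% of all genes, and DESeq2 called none of them. KDM5A had an unadjusted p under 0.05, with an interaction of 0.28 on the log2 scale (SE 0.11, adjusted p = 0.305). For KDM3A the interaction was 0.26 (SE 0.21), with a 95% interval of -0.19 to 0.70.

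Same-numbered libraries deviated from their group means together, so the falls were also taken within numbers 1, 2 and 3. For KDM3A the log2 ratio of OSS to Static was -1.89, -1.75 and -1.22 at 12 h against 0 h, -2.41, -2.16 and -1.91 at 48 h, and -2.06, -2.01 and -1.70 at 96 h. For KDM4B it lay between -1.23 and -0.77 over the 9 pairs, for KDM5B between -1.04 and -0.36, and for KDM4C between -0.65 and -0.39. All 4 genes were lower in OSS in each of the 9 pairs. Any pairing would give this, because their OSS and static libraries did not overlap at any of these times. The direction within pairs thus adds no support of its own. The fall of KDM3A was smallest in number 3 at every time.

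Per kilobase of gene length, the order of the family's levels in OSS 96 h differed from that in Static 0 h and in Static 96 h. Only Static 96 h matches OSS 96 h in time. The reads were aligned to MonDom5, the reference genome of Monodelphis domestica, with mismatches allowed. How well reads of this line match that genome at each gene was not tested. This bears on levels and ratios compared between genes. In Static 0 h, KDM3A (30.8 ± 5.81 CPM per kilobase), KDM5B (30.0 ± 3.43), KDM2A (30.0 ± 1.56), KDM4B (26.8 ± 3.13) and KDM3B (25.3 ± 0.86) headed the list. Each of these overlapped with its neighbour in the order. KDM3B, at 24.3 to 25.9 CPM per kilobase, nevertheless lay wholly below KDM2A (29.1 to 31.8) and KDM5B (26.2 to 33.0). KDM5A followed at 12.6 ± 0.20 CPM per kilobase, clear of the genes above it, and KDM4C and both KDM2B entries lay under 5 CPM per kilobase. In Static 96 h, KDM3A (34.5 ± 2.16 CPM per kilobase) again came first. KDM5B (28.4 ± 1.62), KDM2A (28.1 ± 0.20), KDM4B (24.3 ± 0.94), KDM3B (21.3 ± 0.90) and KDM5A (13.3 ± 0.33) followed, and only KDM5B and KDM2A overlapped among these. In OSS 96 h the order was KDM2A (27.2 ± 1.52 CPM per kilobase), KDM3B (20.9 ± 0.27), KDM5B (19.5 ± 1.66), KDM5A (13.2 ± 0.37), KDM4B (13.0 ± 0.16) and KDM3A (9.11 ± 0.76). There KDM3A did not overlap with KDM4B, while KDM3B and KDM5B overlapped, as did KDM5A and KDM4B.

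Of the members that fell, KDM3A, KDM4B and KDM5B followed each other closely across libraries, and KDM4C followed them less closely. Over the 18 libraries, which are 9 OSS and 9 static and so mainly trace that split, Pearson's r of log2 CPM was 0.976 between KDM3A and KDM4B, 0.948 between KDM3A and KDM5B and 0.938 between KDM4B and KDM5B. With KDM3A, KDM4B and KDM5B in turn, KDM4C gave 0.770, 0.734 and 0.766. The KDM2B entry ENSMODG00000012085, not called at 12 or 96 h, gave 0.765, 0.773 and 0.824 with the same genes. KDM3A with KDM3B gave 0.538, and the 2 KDM2B entries gave -0.132. Among all other tested genes with a symbol, the 3 most like KDM3A were PLOD1 (r = 0.983), a collagen lysyl hydroxylase, RLF (0.980), a zinc finger protein, and P4HA1 (0.977), a collagen prolyl hydroxylase. Those most like KDM4B were BLK (0.985), a Src family kinase, PLOD1 (0.979) and KDM3A (0.976). KDM4C was closest to WIPI1 (0.978), an autophagy protein, ADHFE1 (0.964) and FAM213B (0.960). PLOD1 averaged 90.5 ± 1.62 CPM in OSS 96 h and 378 ± 23.4 CPM in Static 96 h (SD, n = 3 each).

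Calls among other demethylases and JmjC proteins went in both directions at 48 and 96 h. Of the 14 tested, 1 was higher and none lower at 12 h, 3 higher and 3 lower at 48 h, and 2 higher and 4 lower at 96 h. Of all genes, 6.65, 24.5 and 26.2% were called lower at these times, and whether the 14 differed from the members was not tested. Their median log2 fold changes were 0.03, 0.03 and 0.00, and the 14 values at 96 h spanned -0.56 to 0.36. JMJD6, a JmjC protein that hydroxylates lysines, rose at all 3 times, by 0.56 at 12 h (SE 0.11, edgeR adjusted p = 0.0208) and 0.32 at 96 h. JARID2, a JmjC protein without demethylase activity that partners Polycomb, fell by 0.56 at 96 h (SE 0.09, adjusted p = 0.00169). KDM1A, a flavin-dependent demethylase that does not use 2-oxoglutarate, rose by 0.21 at 48 h (SE 0.06, adjusted p = 0.0142) and stood at 0.03 at 96 h, where it did not pass.

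Calls among the enzymes that write histone lysine methylation also went in both directions. Of 25 methyltransferases tested, 1 was higher and 1 lower at 12 h, 5 higher and 12 lower at 48 h, and 5 higher and 5 lower at 96 h. Over all genes, 6.45, 23.5 and 25.5% were called higher and 6.65, 24.5 and 26.2% lower at these times. Whether these enzymes, or the Polycomb genes below, differed from all genes was not tested. SUV39H2, which trimethylates lysine 9, rose by 0.97 at 96 h (SE 0.07, edgeR adjusted p = 8.32e-05), and EZH2, the Polycomb enzyme for lysine 27, rose by 0.64 (SE 0.11, adjusted p = 0.00322). Its paralogue EZH1 fell by 0.47 (SE 0.06, adjusted p = 0.000731), and SMYD3 had a log2 fold change of -1.20 (SE 0.19, adjusted p = 0.00166). Of 17 Polycomb and partner subunits, 1 was higher and 1 lower at 12 h, 2 higher and 7 lower at 48 h, and 4 higher and 4 lower at 96 h. PCGF6, a subunit of variant Polycomb complexes, rose by 0.87 at 96 h (SE 0.08, adjusted p = 0.000222). PCGF1 and BCOR, subunits of the complex that KDM2B recruits, fell by 0.45 (SE 0.15, adjusted p = 0.0367) and 0.43 (SE 0.06, adjusted p = 0.000784).

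Among 8 other 2-oxoglutarate oxygenases tested, 4 were lower and none higher at 12 h, 5 lower and 1 higher at 48 h, and 4 lower and 2 higher at 96 h. Shares over all genes at these times were 6.65, 24.5 and 26.2% lower and 6.45, 23.5 and 25.5% higher. The HIF prolyl hydroxylases EGLN1 and EGLN3 fell at 96 h. EGLN1 had a log2 fold change of -1.74 (SE 0.05, edgeR adjusted p = 7.06e-06) and EGLN3 one of -1.96 (SE 0.13, adjusted p = 6.29e-05). EGLN2, also on the list, is not described here. ALKBH5, an RNA demethylase, fell by 1.15 (SE 0.08, adjusted p = 8.53e-05), while ALKBH1 rose by 0.63 (SE 0.05, adjusted p = 0.000127). Of 18 HIF target genes, none was higher at any of the 3 times, and 15, 17 and 18 were lower at 12, 48 and 96 h. Their median log2 fold changes were -1.17, -2.02 and -1.93, and KDM3A had -1.61, -2.18 and -1.92. That list was chosen with earlier results of these data known, and a cause shared with the members was not tested. KDM4B, KDM5B and KDM4C fell by less than the list's median at each time, though KDM4C did not pass at 12 h.

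**Figure D4:**
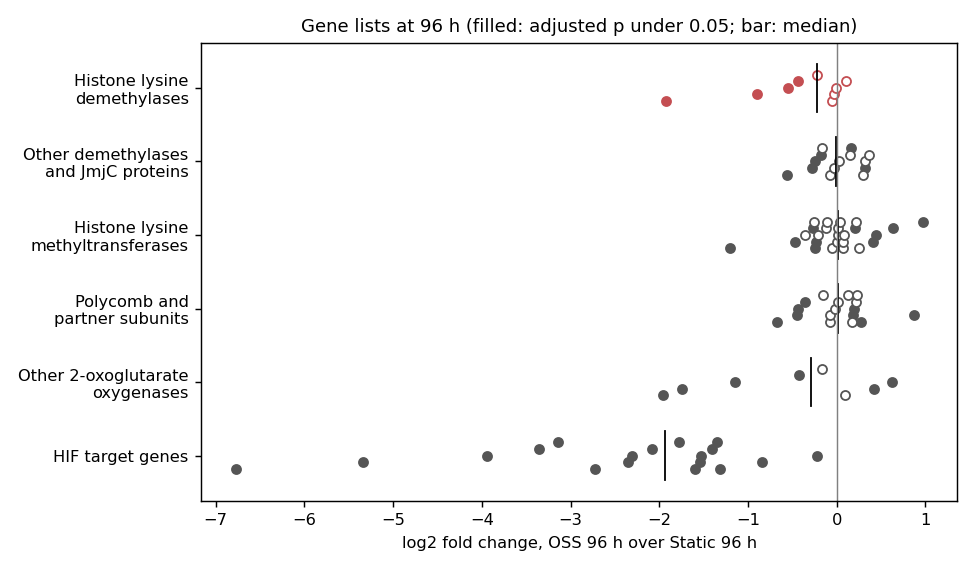
log2 fold change of OSS 96 h over Static 96 h (horizontal axis) for each tested gene of 6 lists, 1 list per line; filled points have an adjusted p under 0.05 and black bars are list medians. The demethylases have a median of -0.22 and a tail of 4 lower genes down to -1.92, and the HIF target genes have a median of -1.93 with all 18 lower.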

How the data were processed

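The authors removed ribosomal RNA, made stranded total RNA libraries and sequenced paired reads. By the paper's methods and the submitters' processing notes, reads were trimmed with cutadapt, aligned to the MonDom5 genome with TopHat2 and counted per gene with featureCounts of Subread. Versions and the strand setting are not given in the sources used here. The deposited values are raw counts, whole numbers per Ensembl gene, with a gene length that was used for levels per kilobase only. Smaller deposited sheets that repeat these counts were left out.

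Tests used edgeR 4.0.16 in R 4.3.3: TMM scaling, trended dispersion and quasi-likelihood F-tests (legacy form) with p-values adjusted by Benjamini-Hochberg over 12840 genes and a threshold of 0.05. Each SE was taken from the log2 fold change and its F, and 95% intervals used the t quantile that the p implies. Comparisons of OSS with Static at 12 h (against 0 h) and at 96 h used only the 6 libraries concerned, and steps of time the 9 libraries of 1 culture mode. Other comparisons were fitted on all 18. On simulated counts, 85, 76 and 80% of 2-fold changes were recovered for the comparisons at 12, 48 and 96 h. The simulations called 190, 180 and 189 of 12840 genes, against 13.1, 48 and 51.6% of genes called in the data. Changed genes were drawn above a minimum count, and spread followed the dispersion trend with no part of a gene's own. Changes under 2-fold, and libraries that deviate together by number, were not simulated. The rates thus may not hold for these data, and they do not cover the smaller member differences that did not pass. P-values rest on the spread between the 3 libraries within groups, pooled over every group in the fit and shared in part across genes. For OSS 48 h against Static 48 h that spread came from all 18 libraries.

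Every member is named. From the other lists, up to 4 called genes with the largest changes per comparison could be named, and KDM1A, named for its mechanism, was chosen after its values were seen. The members and lists were chosen with earlier results of these data known. All 45 correlations between the deviations of same-numbered libraries exceeded 0.1 (0.279 to 0.790, median 0.548). Between different numbers, 29 of 90 also exceeded 0.1 (-0.687 to 0.451, median -0.466), so the numbers do not separate cleanly. The numbers were taken to pair the libraries, although the labels do not say what a number stands for. Alternatives were DESeq2 1.42.0, other scaling, no filter, a replicate block, other dispersions, other libraries in the fit, a sheet with 1 entry per gene name, and leaving out each library. Figures were drawn with matplotlib 3.10.9.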

Additional observations from a re-analysis of the deposited data

How the results depend on the processing

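No member turned its direction in any alternative where it was called. The counts of members called changed by over 1.5 times in 3 comparisons. For OSS 12 h against Static 0 h (3 called), the replicate block and a fit on all 18 libraries each gave 5. For Static 48 h against Static 0 h (1 called), DESeq2 and the replicate block gave 2, a fit on all 18 libraries 3 and no scaling factors 0. For Static 96 h against Static 0 h (2 called), no scaling factors and no filter on low counts gave 1 each. Leaving out 1 library gave 2 to 4 members at 12 h, 6 to 7 at 48 h and 4 to 4 at 96 h for OSS against Static, 0 to 2 for Static 48 h and 0 to 1 for Static 96 h against Static 0 h. The block changed no other member's call. Over all genes, it called 5294 in place of 1682 for OSS 12 h against Static 0 h, where DESeq2 called 2788, all 18 libraries 3107, and fits without 1 library as few as 71 (without OSS 12 h replicate 2). It called 5493 in place of 3480 for OSS 48 h against OSS 12 h, 2466 in place of 147 for OSS 96 h against OSS 48 h, 103 in place of 5 for Static 96 h against Static 48 h and 138 in place of 0 for the interaction. DESeq2 called 1105, 286 and 225 in these last 3 comparisons. Fits without 1 library called 1 to 15 in place of 147 for OSS 96 h against OSS 48 h, and 0 (without any Static 96 h library) to 13 (without Static 48 h replicate 3) in place of 5 for Static 96 h against Static 48 h. They called up to 24 for the interaction (without Static 48 h replicate 3), 2173 in place of 3480 for OSS 48 h against OSS 12 h (without OSS 48 h replicate 2) and 2605 in place of 4115 for Static 96 h against Static 0 h (without Static 96 h replicate 3). Without scaling factors the share of called genes that were higher was 36.0% in place of 52.8% for OSS 48 h against OSS 12 h, 37.2% in place of 49.2% for Static 48 h, 32.0% in place of 48.3% for Static 96 h and 36.6% in place of 49.0% for OSS 96 h against Static 0 h. The median of all genes was then -0.15 for Static 96 h against Static 0 h, and KDM4C lost its call in both static comparisons. The cause of these changes was not tested.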
